A study of Mus musculus with 2 samples.

Results

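The SR protein and hnRNP genes are the genes of the classical splicing regulators, and their transcripts were examined here as possible RNA targets of Mbnl2 in mouse skeletal muscle. They were chosen by name, as the protein-coding genes whose symbol starts with Srsf, Hnrnp, Hnrp or Tra2 in the mm9 GENCODE annotation. The rule gave 33 of 22380 protein-coding genes, of which 11 encode SR proteins, 2 encode the SR-like Tra2 proteins and 20 encode hnRNPs. A pseudogene that also carries such a name was not counted.

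The study compared Mbnl2 binding in quadriceps of WT mice and of *Mbnl1* KO mice (*Mbnl1*-/-, homozygous for an allele named for a deletion of exon 3), all 15 to 16 weeks old and given as C57BL/6 in the labels. Binding was measured by HITS-CLIP, in which muscle powder is irradiated with UV light to fix proteins to the RNA they touch, the RNA is trimmed with RNase A at 38.6 or 0.0386 U/ml, and the fragments that come down with the protein are sequenced. For each genotype 3 mice were merged into 1 table, so mouse-to-mouse spread cannot be computed and no test between the genotypes was possible. The knockout was constitutive and whole quadriceps was used, so a change in the cells of the tissue and a change within its fibres cannot be told apart, and since RNA levels were not analysed, neither can more binding per transcript and more transcript.

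SR proteins carry RNA recognition motifs and a domain rich in arginine and serine, bind exonic enhancers and mostly promote the use of the exon they sit on. hnRNPs package nascent transcripts and often act against SR proteins by masking splice sites or exons, and several also act on mRNA stability and export. Many genes of both families limit their own output by splicing in an exon that sends the transcript to nonsense-mediated decay (NMD). Mbnl proteins bind YGCY, where Y is C or T, in introns to control splicing and in 3'UTRs, where they affect the stability and localization of mRNAs.

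The unit of measurement is the tag, a sequenced fragment with its position, strand and the number of reads collapsed into it. Tags of a table can share the same start and end, and each was counted. An example is chr5:100389778-100389802 in *Mbnl1* KO, with tags of 20106, 10 and 27652 reads. There were 343554 tags in the WT table, from 5176203 reads, and 476543 in the *Mbnl1* KO table, from 50329234 reads, so 1 tag is 2.91 tags per 1000000 in WT and 2.10 in *Mbnl1* KO. A value of 0 tags allows up to 3 tags, which is 8.73 per 1000000 in WT. The *Mbnl1* KO/WT ratio of a gene divides its share of the *Mbnl1* KO tags by its share of the WT tags, and its 95% interval is the exact Clopper-Pearson interval of the split of its tags between the tables. Such an interval holds counting error alone, takes each tag as independent even where tags share a position, and sets 2 merged libraries against each other. Fibre markers were present in both tables, for example 424 tags in WT and 1519 in *Mbnl1* KO at Ttn, as were tags at the fibroblast genes Col1a1 (123 and 471) and Col3a1 (14 and 110). Ptprc of leukocytes had 9 and 6 tags, Pecam1 of endothelium 16 and 18, Adipoq of adipocytes 1 and 12, and Hbb-b1 of erythroid cells 2 and 2, so none of these markers was at 0. In all, 6 of 6 fibre genes and 2 of 2 fibroblast genes had an interval above 1 (summed ratios 2.51 and 3.06), as did 38.6% of the 3888 protein-coding genes with at least 20 tags, and the part of such cells in the values below was not tested. The start codon exon of Mbnl1 (chr3:60332678-60333726), a stand-in for the deleted exon, had 5 tags in WT and 2 in *Mbnl1* KO, too few to check the genotype (ratio 0.288, interval 0.0275 to 1.76).

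Sites at which several tags overlapped were few. Tags on one strand that overlap each other, taken from both tables together, were joined into clusters, and 15 clusters with at least 5 tags lay in the SR protein and hnRNP genes. A single cluster reached 10 tags. The 30 nt around the summit of the 13 clusters with at least 6 tags are shown because they are the positions where Mbnl2 tags piled up in these genes and can be read against the Mbnl motif. Sequences are from mm9, on the strand of the gene, 5' to 3', with YGCY in capitals, that is TGCT or CGCT, or either word with its last base changed to C. Only the gene's strand was searched and overlapping matches count separately.
Hnrnpd, distal 3'UTR, chr5:100389775-100389804, minus strand: tagtcaatgTGCTtgttggttgtcttaata
Hnrpdl, 3'UTR, chr5:100463831-100463860, minus strand: gttttactttgtccttTGCTacctgtgtta
Hnrnph1, 3'UTR, chr11:50199975-50200004, plus strand: tttaggtgtattgCGCTaagtgaaccttgt
Hnrnpu, 3'UTR, chr1:180259158-180259187, minus strand: aaagtaaaatgtTGCTttgtacctggtgtc
Srsf11, proximal 3'UTR, chr3:157674388-157674417, minus strand: ttttttgatggctaagtaggctttaaatta
Hnrnpa2b1, 3'UTR, chr6:51411931-51411960, minus strand: aaagcttttctTGCTtccttcagtggtgtt
Hnrnpa3, intron 1, chr2:75498129-75498158, plus strand: ggTGCTtcctaaccCGCTGCTtgTGCTcaa
Hnrnpd, proximal 3'UTR, chr5:100390148-100390177, minus strand: tttcttaatTGCTaTGCTtcagtatcaatt
Hnrnpc, distal 3'UTR, chr14:52694382-52694411, minus strand: cagtagtTGCTtccctaactgcagaggcat
Hnrnpc, proximal 3'UTR, chr14:52694550-52694579, minus strand: cacttcctttgaTGCTccgtagtactttcg
Hnrnpk, 3'UTR, chr13:58492825-58492854, minus strand: gacttaaagctgtcaaccTGCTagtgtctt
Srsf11, distal 3'UTR, chr3:157673937-157673966, minus strand: gtaggctacagtctgTGCCatgttgatgta
Srsf2, 3'UTR, chr11:116711964-116711993, minus strand: tagTGCTgacttttttgtttgaaattaaac

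Of these 13 windows, 12 lay in a 3'UTR and 1, in Hnrnpa3, lay in an intron. The Hnrnpa3 window held 4 matches to YGCY, 2 of them overlapping, the proximal Hnrnpd window held 2, and the proximal Srsf11 window held 0. Over the 15 clusters with at least 5 tags, 12 summit windows (80.0%, exact interval 51.9 to 95.7) had a match. The same share was 49.7% (48.6 to 50.9) of 7356 clusters in other protein-coding genes, and 66.2% of 5393 with single-base tags (described below) left out, a value inside the interval of the SR protein and hnRNP windows. Among all consecutive 30-nt windows of the 33 gene bodies 26.4% held a match, and among those of their 3'UTRs 23.2% did. Of single tags in these genes, 42 of 105 in WT (30.6 to 50.02%) and 214 of 439 in *Mbnl1* KO (48.7%, 44.0 to 53.5) held a match, beside 34.4% and 50.1% in other protein-coding genes. These matches describe the sequence and do not show that Mbnl2 touched those bases.

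Mbnl2 tags were more frequent over the SR protein and hnRNP genes in the *Mbnl1* KO table. The 33 genes together had 105 tags in WT and 439 in *Mbnl1* KO, or 306 and 921 tags per 1000000, a ratio of 3.01 (interval 2.43 to 3.77). All other protein-coding genes summed to a ratio of 1.61 (1.60 to 1.63). By family, it was 3.69 (2.37 to 5.99) over the SR proteins, 2.16 (0.940 to 5.57) over the Tra2 genes and 2.88 (2.22 to 3.78) over the hnRNPs. The share was higher in *Mbnl1* KO at 31 genes and lower at 2, Hnrnph3 and Srsf9, while among other protein-coding genes it was higher at 10611 and lower at 5390. Tag numbers per gene were small, at most 9 in WT and 33 in *Mbnl1* KO, with medians of 3 and 13, and 5 genes had no WT tag.

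**Figure D1:**
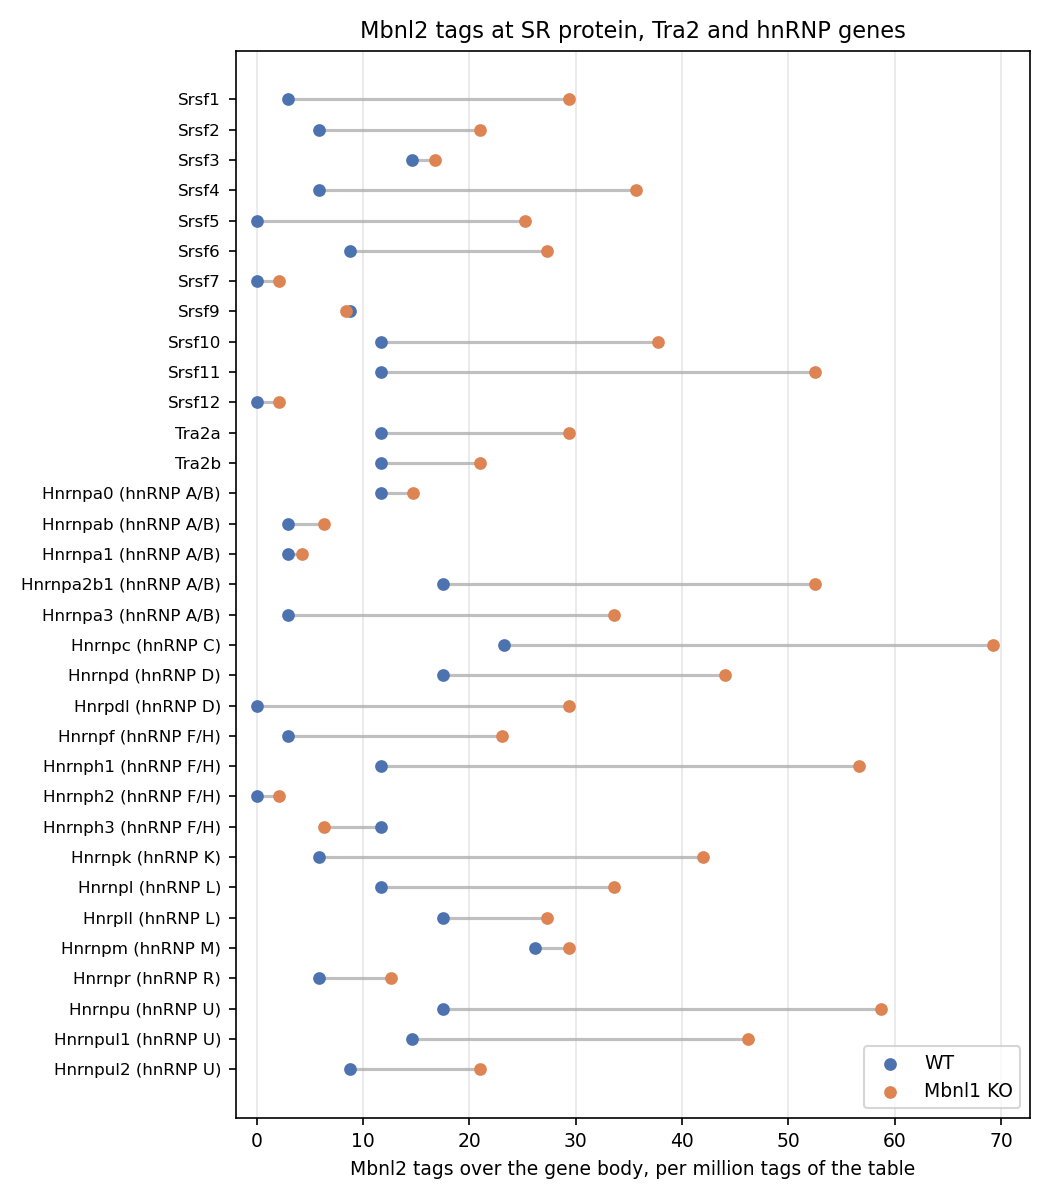
Mbnl2 tags over each of the 33 gene bodies in tags per 1000000 of the table (horizontal axis), with WT in blue and *Mbnl1* KO in orange, joined by a grey line, and 1 merged table per genotype. WT values lie between 0 and 26.2 per 1000000 and *Mbnl1* KO values between 2.10 and 69.2, and the *Mbnl1* KO point lies to the right at 31 genes.

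A minimum of 20 tags in both tables together was reached by 11 genes, and 22 fell below it. Of the 11, 10 had a ratio of at least 2, where 41.6% of the 3888 protein-coding genes with as many tags did, and 0 had a ratio of at most 0.5, where 3.76% did. The interval lay above 1 at 8 of the 11 (38.6% of the 3888 genes) and below 1 at 0 (3.83%). Their median ratio was 3.17, beside 1.75 over the 3888 genes.

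These counts depended on the scale, the tags and the background used. Scaled so that the median protein-coding gene is at 1, the summed ratio was 1.73, the ratio was at least 2 at 3 of 11 genes (13.7%), and the interval lay above 1 at 1 of 11 (11.8%), Hnrnpk, where it started at 1.003. Single-base tags, whose reference sequence is at least 70% one base, made up 43.3% of the WT but 16.8% of the *Mbnl1* KO table, yet 7 of 105 WT and 10 of 439 *Mbnl1* KO tags in the SR protein and hnRNP genes. With them left out of both tables, the summed ratio was 2.15 (1.73 to 2.71), the ratio was at least 2 at 6 of 11 genes (29.1% of 3307), and the interval lay above 1 at 3 of 11 (26.5%), Srsf11, Hnrnph1 and Hnrnpk. The lower bound was then 0.729 at Srsf10, 0.746 at Hnrnpa2b1, 0.758 at Hnrnpul1, 0.888 at Hnrnpc and 0.933 at Hnrnpu, so the calls at these 5 genes given below hold only with single-base tags kept. With tags of at least 2 reads the summed ratio was 1.96 (1.46 to 2.68), and 3 genes kept 20 tags, of which 1 had a ratio of at least 2, where 31.1% of 1742 protein-coding genes did.

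Exonic tags had higher ratios than intronic tags in protein-coding genes at large, and most SR protein and hnRNP tags were exonic. Counted over exons alone, all 7 SR protein and hnRNP genes with 20 tags had a ratio of at least 2, but so did 84.1% of 1145 protein-coding genes, and the interval was above 1 at 5 of 7 against 75.9%. Medians were 4.09 and 3.20. Exon tags were also scaled so that the median of these 1145 genes is at 1, which was tried only once the first values were known. The summed ratio of the 33 genes was then 1.18 (0.882 to 1.60), and a difference from that median gene was not detectable at this depth. This sets a sum against a median. Without that scale, exon tags of the 33 genes summed to 3.77 (2.83 to 5.11), and other genes' summed 3'UTRs and coding sequence had ratios of 2.95 and 2.71. With exon tags alone and single-base tags left out, likewise tried afterwards, 4 of 7 genes had a ratio of at least 2, against 59.0% of 1131.

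**Figure D2:**
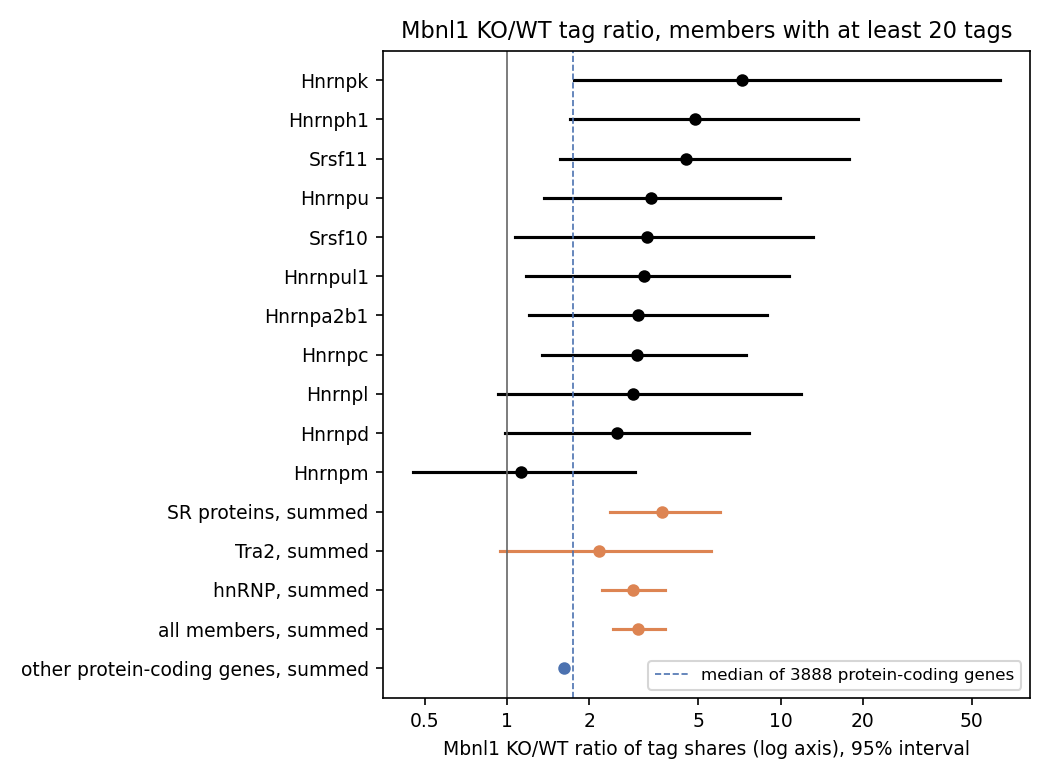
*Mbnl1* KO/WT ratio of tag shares on a log axis for the 11 genes with at least 20 tags (black), for summed groups (orange) and for all other protein-coding genes summed (blue), with 95% Clopper-Pearson intervals as bars. The solid line is a ratio of 1 and the dashed line the median of 1.75 over 3888 genes, which lies inside the interval of most single genes.

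Among the SR proteins, Srsf11 and Srsf10 passed the 20-tag minimum. Srsf11, an SR protein found with U2AF at the 3' splice site (chr3:157673437-157699603, minus strand), had 4 tags in WT and 25 in *Mbnl1* KO, or 11.6 and 52.5 per 1000000, a ratio of 4.51 (1.56 to 17.8), but its lower bound was 0.891 with the median gene at 1 and 0.753 with tags of at least 2 reads. Most of its *Mbnl1* KO tags, 17, lay in the 3'UTR, where WT had 0, and of these the proximal cluster printed above held 8 and the distal cluster 6. Its introns held 3 and 5 tags. Srsf10 (chr4:135411662-135425823, plus strand), which becomes a splicing repressor when dephosphorylated, had 4 tags in WT and 18 in *Mbnl1* KO, or 11.6 and 37.8 per 1000000, with a ratio of 3.24 (1.07 to 13.2). Intron 2 of Srsf10 (chr4:135414325-135417688) carried 2 of its 3 WT and 9 of its 11 *Mbnl1* KO intronic tags. Of its exonic 30-nt words, 43.5% have another exact copy in the genome, and the effect of such copies on the placing of reads was not tested here.

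Of the 9 SR protein genes below the minimum, 6 had at least 10 tags and 3 of these an interval above 1. Among all 6750 protein-coding genes with at least 10 tags, 27.7% had one. That set is not a matched one, since it includes the 3888 genes that reached the minimum, of which 38.6% had such an interval. The share among genes below the minimum was therefore lower than 27.7%, and it was not computed separately. Srsf1, the founding SR protein and a regulator of many splice choices, had 1 tag in WT and 14 in *Mbnl1* KO (ratio 10.1, interval 1.54 to 427), 12 of the latter in its 3'UTR. Srsf4 had 2 and 17 tags (6.13, 1.45 to 54.7), of which 2 and 11 were intronic. No WT tag was found at Srsf5, against 12 in *Mbnl1* KO, so its tag share was at least 2.88-fold higher when the WT value is set at the 3-tag floor. That bound leaves out the counting error of the 12 tags, and the exact interval of Srsf5 starts at 2.003. The intervals of Srsf1 and Srsf4 rest on 1 and 2 WT tags. Their lower bounds fell to 0.961 and 0.993 without single-base tags, and with the median gene at 1 to 0.880 and 0.833, so both calls were lost.
Srsf2, which acts in early spliceosome assembly, had 2 tags in WT and 10 in *Mbnl1* KO, all in its 3'UTR, and Srsf6 had 3 and 13, with 2 and 10 in the 3'UTR. Their intervals, 0.768 to 33.8 and 0.858 to 17.1, both included 1. Srsf3, the smallest of the family, had 5 and 8 tags (1.15, 0.333 to 4.48), and Srsf9 had 3 and 4 (0.961, 0.163 to 6.56). At these 4 genes a difference was not detectable. Srsf7, a shuttling SR protein with a zinc knuckle, and Srsf12 had 0 WT tags and 1 *Mbnl1* KO tag each, within what a count of 0 allows.

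The Tra2 genes encode SR-like activators that bind GA-rich exonic enhancers, and their tags lay almost wholly in introns. Tra2a had 4 tags in WT and 14 in *Mbnl1* KO (ratio 2.52, interval 0.792 to 10.5), all of them intronic. Introns 1, 3 and 4 of 7 held 3 and 5, 1 and 4, and 0 and 5 of these tags. Tra2b had 4 and 10 tags (1.80, 0.520 to 7.87), with 4 and 8 in introns, among them 2 and 7 in intron 1 (chr16:22255191-22265813). That intron contains the 276-nt exon chr16:22259059-22259334, annotated only in NMD transcripts, through which Tra2b is known to limit its own level, and this exon held 0 tags in either table. Neither gene had an interval off 1.

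In the hnRNP A/B group, abundant proteins that repress exons and splice sites, 13 tags in WT and 53 in *Mbnl1* KO were counted, a ratio of 2.94 (1.58 to 5.88). Hnrnpa2b1 (chr6:51410433-51419893, minus strand) had 6 and 25 tags, or 17.5 and 52.5 per 1000000, with a ratio of 3.00 (1.20 to 8.95). Every one of its tags was exonic, with 5 and 20 in the 3'UTR. Hnrnpa3 had 1 and 16 tags (11.5, 1.79 to 484), and its ratio was 4.48 (0.663 to 191) with tags of at least 2 reads. Of all its tags, intron 1, where the window with 4 motif matches lies, held 1 and 6. Its 7 exonic *Mbnl1* KO tags were in the 3'UTR. Hnrnpa0 had the cluster with the most WT tags, although the gene had 4 tags in WT and 7 in *Mbnl1* KO (1.26, 0.321 to 5.88). A cluster in its 3'UTR (chr13:58227803-58227823) held 4 WT tags and 1 *Mbnl1* KO tag and its summit window had no YGCY match. Hnrnpab had 1 and 3 tags and Hnrnpa1, the best known of the group, 1 and 2. For Hnrnpa1 and Hnrnpa3, 89.9% and 88.3% of exonic 30-nt words have another exact copy in the genome, while Hnrnpa0 has none, so a low exonic number at the first 2 cannot be told apart from tags lost to copies.

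Hnrnpc, which binds uridine runs and keeps cryptic exons out of mRNA, had the most tags of all 33 genes. Over chr14:52693055-52723703 (minus strand) it had 8 tags in WT and 33 in *Mbnl1* KO, or 23.3 and 69.2 per 1000000, a ratio of 2.97 (1.35 to 7.45). They were split between the 3'UTR (5 and 18) and introns (3 and 14), and intron 1 alone had 1 and 10. Both printed 3'UTR clusters of Hnrnpc hold a TGCT, and they had 2 and 4 tags and 1 and 5 tags. Copies elsewhere in the genome exist for 39.8% of its exonic 30-nt words.

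The hnRNP D group binds AU-rich elements and acts on mRNA decay, and nearly all of its tags lay in 3'UTRs. Hnrnpd (chr5:100387445-100407957, minus strand) had 6 tags in WT and 21 in *Mbnl1* KO, or 17.5 and 44.1 per 1000000, with a ratio of 2.52 (0.985 to 7.64), so its interval reached just below 1. With tags of at least 2 reads its ratio was 0.971 (0.325 to 3.48), with the *Mbnl1* KO tags scaled by 0.373 there in place of 0.721. Of all its tags, 6 and 20 lay in the 3'UTR. The distal cluster, the one with the most tags, had 2 tags in WT and 9 in *Mbnl1* KO, but the 9 started at only 4 positions and came from 48659 of the 51498 *Mbnl1* KO reads of the gene. The proximal cluster had 3 and 4 tags (0.961, 0.163 to 6.56), and its interval overlapped that of the distal cluster (3.24, 0.671 to 30.9). Hnrpdl, the neighbouring paralogue, had 0 tags in WT and 14 in *Mbnl1* KO, all in the 3'UTR, at least 3.36-fold higher against the 3-tag floor (2.39 at the lower end of the exact interval), and 9 of them formed the printed cluster at 4 start positions.

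Proteins of the hnRNP F/H group bind runs of G and can promote or repress exons. Hnrnph1 (chr11:50190492-50200030, plus strand) had 4 tags in WT and 27 in *Mbnl1* KO, or 11.6 and 56.7 per 1000000, a ratio of 4.87 (1.70 to 19.1), which was 1.62 (0.444 to 8.85) with tags of at least 2 reads. Its 3'UTR held 3 and 12 tags, its coding sequence 0 and 4, and exons annotated only in noncoding transcripts 1 and 9. The printed Hnrnph1 cluster had 1 and 7 tags and ends close to the annotated transcript end, its summit being 40 nt from it. Hnrnpf had 1 and 11 tags (7.93, 1.15 to 341, with a lower bound of 0.787 without single-base tags), and had 73.8% of its exonic words found again elsewhere. The share at Hnrnph3 was lower in *Mbnl1* KO, with 4 tags in WT and 3 in *Mbnl1* KO (0.541, 0.0792 to 3.20), all in intron 1, and its direction could not be told at this depth. Hnrnph2 had 0 tags and 1 tag.

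Hnrnpk, which binds C-rich RNA and DNA, had the highest ratio among the 11 genes. Over chr13:58492503-58504704 (minus strand) it had 2 tags in WT and 20 in *Mbnl1* KO, or 5.82 and 42.0 per 1000000. Its ratio was 7.21 (1.75 to 63.6), and 4.85 (0.729 to 206) with tags of at least 2 reads. Of all its tags, 1 and 13 lay in the 3'UTR, 1 and 5 in coding sequence and 0 and 2 in introns. Its 3'UTR cluster held 1 and 5 tags, and the 5 started at 2 positions. The interval of Hnrnpk contained the ratio of each of the other 10 genes except Hnrnpm, and 52.3% of its exonic words recur in the genome.

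In the hnRNP L group, readers of CA repeats, the sum was 10 tags in WT and 29 in *Mbnl1* KO (ratio 2.09, 0.990 to 4.81). Hnrnpl (chr7:29593560-29607285, plus strand) had 4 and 16 tags, or 11.6 and 33.6 per 1000000, with a ratio of 2.88 (0.930 to 11.9). Coding sequence held 10 of its 16 *Mbnl1* KO tags and 1 of its 4 WT tags, the highest coding number of the 33 genes, and its 3'UTR held 0 in WT and 1 in *Mbnl1* KO. Hnrpll, known for the splicing of the CD45 gene in lymphocytes, had 6 and 13 tags (1.56, 0.554 to 5.01), of which 6 and 9 were intronic.

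Hnrnpm was the exception among the 11 genes, with a ratio near 1. This regulator of exon choice during epithelial-mesenchymal transition (chr17:33783178-33823805, minus strand) had 9 tags in WT and 14 in *Mbnl1* KO, or 26.2 and 29.4 per 1000000, a ratio of 1.12 (0.452 to 2.94). It had the highest WT value of all 33 genes, 6 and 10 of its tags were intronic, and none lay in the 3'UTR. Hnrnpr, a relative of Syncrip, had 2 and 6 tags (2.16, 0.387 to 21.9), the 6 in its 3'UTR.

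The hnRNP U group, nuclear scaffold proteins that also act on splicing, had 14 tags in WT and 60 in *Mbnl1* KO, a ratio of 3.09 (1.71 to 5.99). Hnrnpu (chr1:180253205-180267928, minus strand) had 6 and 28 tags, or 17.5 and 58.8 per 1000000, with a ratio of 3.36 (1.37 to 9.94). Most lay in the 3'UTR (3 and 12) and introns (3 and 11, with 2 and 5 in intron 3), and 3 *Mbnl1* KO tags lay in coding sequence. Some *Mbnl1* KO tags counted as intronic, at chr1:180254495-180254518 and chr1:180257812-180257842, were downstream of all its 3'UTR tags. Hnrnpul1 (chr7:26506517-26539749, minus strand) had 5 and 22 tags, or 14.6 and 46.2 per 1000000, a ratio of 3.17 (1.17 to 10.7), and 4 and 14 of them were intronic, with 1 and 6 in intron 10. Hnrnpul2 had 3 and 10 tags (2.40, 0.619 to 13.6), 8 of the 10 in its 3'UTR. Tags of Hnrnpu and Hnrnpul1 thus lay both in exons and in introns in each table.

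**Figure D3:**
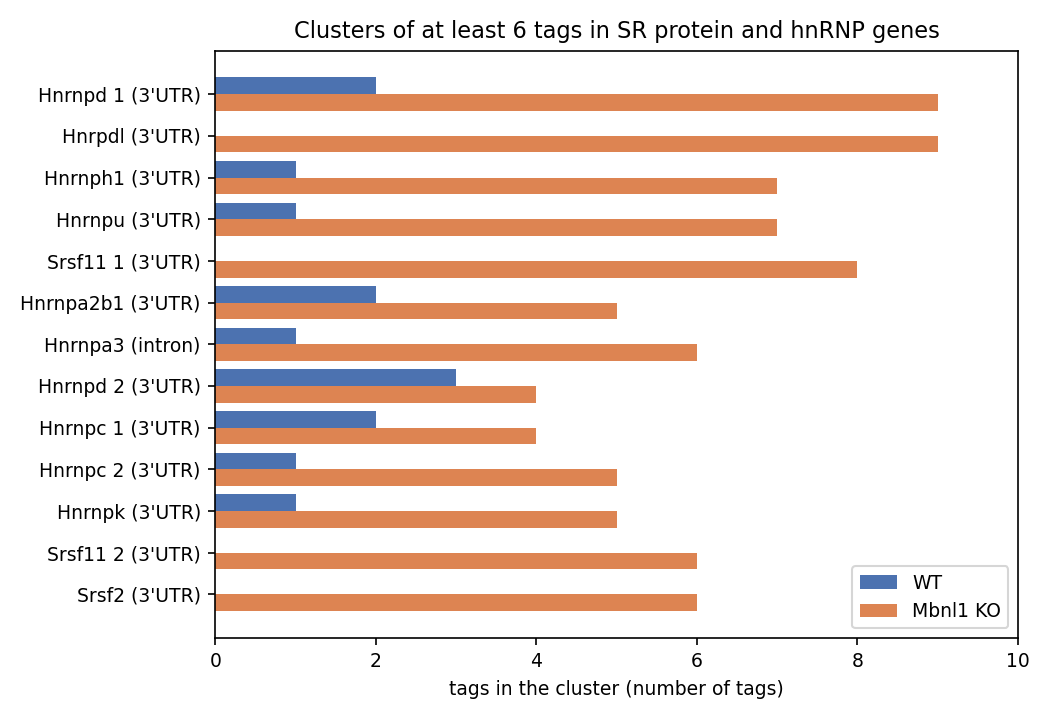
Number of tags from the WT (blue) and *Mbnl1* KO (orange) table in the 13 clusters with at least 6 tags, named by gene and region, with the gene's clusters numbered in the order of their tags (horizontal axis, tags, 1 merged table per genotype). WT bars reach 3 tags and *Mbnl1* KO bars run from 4 to 9, and 4 clusters had no WT tag.

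Region by region, tags in the SR protein and hnRNP genes lay less in introns and more in 3'UTRs than those of other genes. Placed by their midpoint, 34.3% (25.3 to 44.2) of WT and 49.0% (44.2 to 53.8) of *Mbnl1* KO tags were in 3'UTRs, beside 16.0% and 29.3% in other protein-coding genes. Intronic shares were 47.6% (37.8 to 57.6) and 33.5% (29.1 to 38.1), beside 76.1% and 58.6%. Since regions differ in length, densities were computed as well. Per kb, the 3'UTRs of the 33 genes held 1.91 WT and 8.21 *Mbnl1* KO tags per 1000000, against 1.57 and 4.63 in other genes, and their introns 0.386 and 0.819 against 0.207 and 0.258.
The 3'UTR tags numbered 36 in WT and 215 in *Mbnl1* KO, a ratio of 4.31 (3.01 to 6.31), and the intronic tags 50 and 147, a ratio of 2.12 (1.53 to 2.98). In other genes the corresponding ratios were 2.95 (2.89 to 3.00) and 1.24 (1.23 to 1.25), both outside the intervals of the 33 genes. For 3'UTRs the gap to the lower bound of 3.01 was narrow. All of these values keep single-base tags and count tags that share a position separately. Coding sequence had 11 and 51 tags (3.34, 1.72 to 7.11), with 2.71 in other genes, and 5'UTRs 3 and 3. In the 3'UTRs of SR protein and Tra2 genes, 6 tags in WT and 69 in *Mbnl1* KO gave a ratio of 8.29 (3.62 to 23.4), and in those of hnRNPs 30 and 146 gave 3.51 (2.36 to 5.39), with overlapping intervals. Of all tags in the 33 genes, 18.1% (11.3 to 26.8) of WT and 26.7% (22.6 to 31.0) of *Mbnl1* KO tags were within 300 nt of an annotated transcript end.

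**Figure D4:**
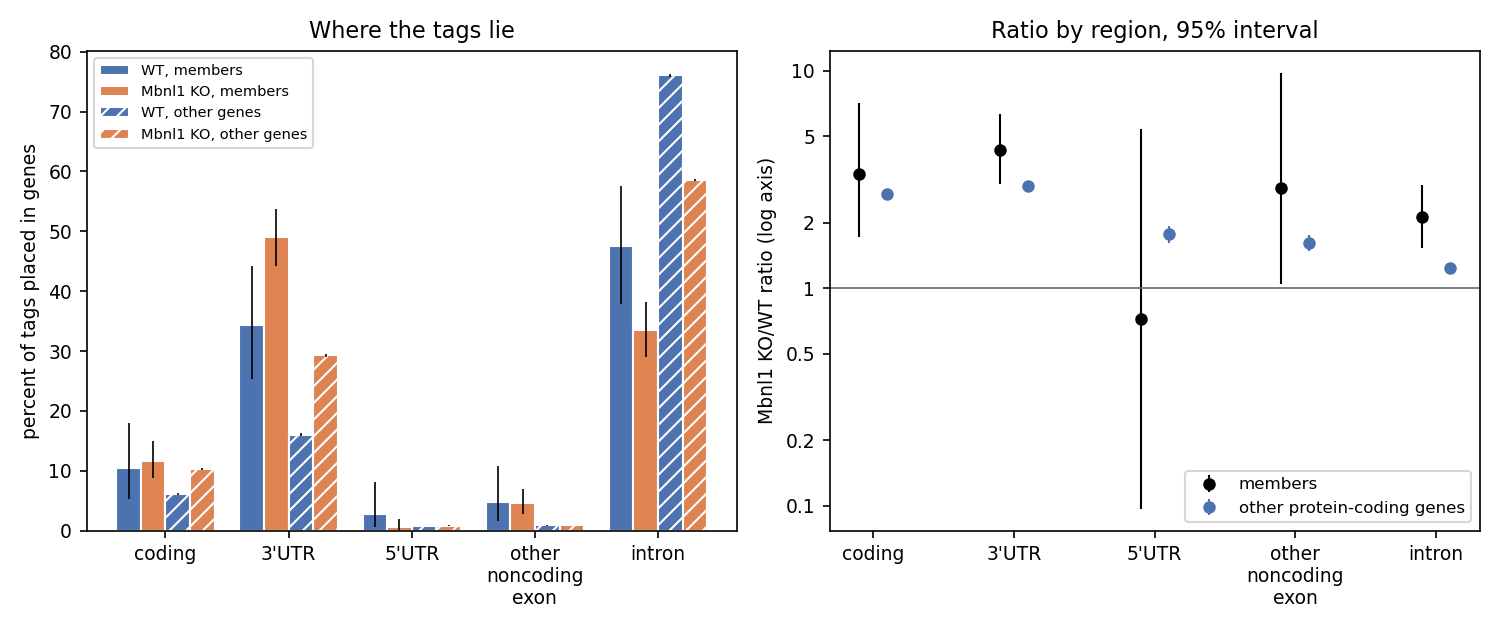
Left, percent of tags placed in each gene region (vertical axis from 0) for WT (blue) and *Mbnl1* KO (orange), in the 33 genes (plain bars) and other protein-coding genes (hatched). Right, *Mbnl1* KO/WT ratio by region on a log axis for the 33 genes (black) and other genes (blue), with 95% Clopper-Pearson intervals as bars on both sides, in which 3'UTRs have ratios of 4.31 and 2.95 and introns 2.12 and 1.24.

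Tags were also counted in exon stretches that the annotation gives only to NMD transcripts. They are not a list of the exons known to limit the output of these families, and Srsf1, Srsf6 and Srsf7, for example, have none. The annotation lists 15 stretches of exon that occur only in NMD transcripts, in 9 of the 33 genes, and 13 of them held 0 tags in both tables, those of Srsf2, Srsf3, Tra2b, Hnrnpd, Hnrpdl, Hnrnph3, Hnrnpl and Hnrnpu included. The other 2 are in Srsf5, at chr12:82048103-82048297 with 0 tags in WT and 2 in *Mbnl1* KO and at chr12:82049116-82050081 with 0 and 1. These stretches are short, 3.44 kb in all, and the 3 tags make 1.83 *Mbnl1* KO tags per 1000000 per kb, against 0.819 in the introns of the 33 genes and 0.760 in NMD-only exons of other genes. With so few tags no difference could be detected, and 0 tags in a single stretch do not show an absence of binding.

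Partners of the same pathway were counted from lists. Of 7 kinases that phosphorylate SR proteins, only Srpk2 reached 20 tags, with 23 tags in WT and 61 in *Mbnl1* KO (ratio 1.91, 1.17 to 3.24), short of a ratio of 2. Among 11 SR-related splicing proteins 5 reached 20 tags, 4 had a ratio of at least 2 and 3 an interval above 1, beside 41.6% and 38.6% of all 3888 genes with as many tags. They were Srrm2, a scaffold of nuclear speckles (1 and 19 tags), Sf1, the branch point binding protein (2 and 22), Son (8 and 26), and Rbm25 (5 and 15), whose interval of 0.747 to 7.61 included 1. Of 14 genes of hnRNPs with other names, 7 reached 20 tags and 2 had a ratio of at least 2 and 1 an interval above 1, beside the same 41.6% and 38.6%. They were Khdrbs1 with 3 and 32 tags (7.69, 2.41 to 39.2) and Tardbp with 6 and 18 (2.16, 0.822 to 6.66). Summed ratios were 1.89 (1.25 to 2.94) for the kinases, 2.92 (2.05 to 4.26) for the SR-related proteins and 1.88 (1.44 to 2.48) for the other hnRNPs.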

How the data were processed

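Mbnl2 HITS-CLIP tags of WT and *Mbnl1* KO quadriceps were used, 1 table per genotype with 3 mice merged in each. The authors filtered reads and aligned them to mm9 (the submitters' processing notes name BWA, without a version). They collapsed potential PCR duplicates and deposited each remaining tag with its strand and a count of the reads behind it, not normalized. The methods give a high and a low RNase concentration and do not state whether the deposited tags come from both. The labels give the strain as C57BL/6, and the methods give a mixed background for compound knockouts.

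Tags of 18 to 33 nt that overlapped a gene body on its strand were counted and divided by the tags of the table, 343554 and 476543, with Python 3.11.15, numpy 2.4.6, pandas 2.3.3, scipy 1.17.1 and matplotlib 3.10.9. Regions came from GENCODE (mm9), in the order coding, 3'UTR, 5'UTR, NMD-only exon, other noncoding exon, intron. Intervals are exact Clopper-Pearson at 95%. No p-value was computed, since each genotype is 1 merged table. Counting and intervals were tested on simulated data. Genes with at least 20 tags, the 10 clusters with the most tags (13 with ties) and listed partners past a ratio of 2 were named, and genes below the minimum were given by tag number. Members and lists were chosen with earlier results of these data known. 1 marker gene of the lists is not reported here. Alternatives were other scales, tag filters, tag minimums and regions.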

Additional observations from a re-analysis of the deposited data

How the results depend on the processing

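No paired analysis was possible because a genotype has 1 table that pools its mice, and for the same reason no mouse could be left out. The summed ratio of the 33 genes (3.01) was above 1 under each of the 11 other ways of counting or scaling, and its interval reached below 1 only with exon tags scaled to the median gene, and the hnRNP and SR sums behaved alike in that respect. Counting by midpoint and leaving out tags shared with another gene left the sums and counts as they were. At a fold of 1.5 the count stayed at 10 of 11, while the share of all genes rose from 41.6% to 59.4%. Without scaling, the ratios were 4.18 summed, 4.00 over the hnRNPs and 4.40 as the median over genes. Scaled so that the median protein-coding gene is at 1, they were 1.73 summed, 2.12 over the SR proteins, 1.65 over the hnRNPs and 1.82 as the median, with a ratio of at least 2 at 3 genes of 11 (13.7% of all genes) and an interval above 1 at 1 gene (11.8%). With single-base tags left out, the values were 2.15 summed, 2.03 over the hnRNPs and 2.07 as the median, with 6 and 3 genes of 11 (29.1% and 26.5%). With tags of at least 2 reads they were 1.96, 1.88 and 1.77, with 1 and 0 genes of 3 (31.1% and 18.7%). With both filters they were 1.67, 1.57 and 1.41, with 1 and 0 genes of 3 (22.6% and 11.1%), and Tra2 fell to 0.836 (interval 0.311 to 2.61). Collapsing tags of the same 5' end gave 2.59 summed (2.05 to 3.31) and a median of 2.87, with 4 and 3 genes of 5 (31.4% and 29.4%). With at least 10 tags required, 20 of 25 genes had a ratio of at least 2 and 14 an interval above 1 (39.3% and 27.7%), and no gene had 50 tags. Exon tags alone gave 3.77 summed and a median of 4.09, with an interval above 1 at 5 genes of 7 (75.9%). Exon tags without single-base tags gave a median of 2.79, with 4 and 3 genes of 7 (59.0% and 51.7%). Exon tags scaled to the median gene gave 1.18 summed, 1.38 over the SR proteins, 1.10 over the hnRNPs and 1.28 as the median, with 2 and 0 genes of 7 (12.5% and 3.23%), and 11 of the 21 genes with a ratio lay below 1 there, among them Hnrnpa2b1 (0.938) and Hnrnpc (0.855), whose intervals had been above 1 with all tags. With single-base tags left out all 11 genes still had 20 tags, while the factor that scales the *Mbnl1* KO tags went from 0.721 to 0.492. Hnrnpu, which has no single-base tag, went from 3.36 to 2.30 and its interval reached 0.933. With tags of at least 2 reads, fewer tags left fewer genes to count, and other causes were not tested. Exon tags of Tra2 gave no ratio, since WT had 0. Depth, scale and the merging of mice all limit these values, since 22 of these genes had fewer than 20 tags, 14 had at most 2 in WT, and intervals do not hold the spread between mice. Region shares of the 33 genes moved by less than their intervals under the alternatives run, and no cluster in these genes had 20 tags. Over clusters of at least 5 tags, their motif share stayed at 12 of 15 windows with single-base tags left out. That of other genes' clusters went from 49.7% (48.6 to 50.9) to 66.2%, past its interval.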

Other observations

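On the opposite strand of the 33 genes, there were 60 tags in WT and 65 in *Mbnl1* KO, 36.4% (exact interval 29.03 to 44.2) and 12.9% (10.1 to 16.1) of the tags on both strands, beside 43.9% and 27.2% over all protein-coding genes. They were unevenly spread, with 11 and 12 opposite Tra2b, 4 and 15 opposite Hnrnpr, and 10 and 1 opposite Hnrnph3. The stretch of Hnrnph3 that Rufy2 overlaps on that strand held 0 of them.

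Tags in the SR protein and hnRNP genes rested on more reads than tags in general. Those with 1 read were 49.5% (39.6 to 59.5) of the WT and 36.7% (32.2 to 41.4) of the *Mbnl1* KO tags in these genes, against 79.0% and 59.5% of all tags. Reads were concentrated, with 6805 of the 15304 WT reads at Hnrnpa0 and 51498 of the 150466 *Mbnl1* KO reads at Hnrnpd. The Hnrnpa0 reads all came from 4 WT tags at 2 start positions.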
